A study of Mus musculus with 2 samples.

Results

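The miR-148 family, of which miR-152 is part, consists of 3 microRNA (miRNA) genes, Mir148a, Mir148b and Mir152, whose main arms carry the same seed. They were taken by gene symbol, through their Ensembl identifiers, from the 1973 gene rows of each deposited table, and all 3 members had a row. MicroRNA-seq, which counts short RNAs, was run on total RNA of heart from healthy B6NCrl mouse embryos at 13.5 days, with tissue of male and female embryos pooled and RNA below 30 nucleotides kept. The 2 libraries are biological replicates of this 1 group (n = 2) from separate biosamples under 1 donor record, and no genotype, treatment or second condition is given.

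A miRNA is cut from a hairpin into a 5p and a 3p arm, and the arm loaded into an Argonaute protein pairs through its seed, bases 2 to 8, with sites mostly in the 3′ UTR of mRNAs, which lowers their output. The miR-148 family is known for targeting Dnmt1, the methyltransferase that copies DNA methylation onto new strands, and in liver miR-148a is known for lowering Abca1, which exports cholesterol. Mir148b and Mir152 lie in genes for the zeta subunits of the COPI vesicle coat, Copz1 and Copz2, which are paralogs of each other.

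The mature sequences are shown first, since the seed defines the family and the bases after it tell the members' reads apart. All 3 members had a hairpin and both arms in RefSeq's table (GRCm38.p6). The 3p arms, 5′ to 3′ with the seed in capitals, read:
miR-148a-3p: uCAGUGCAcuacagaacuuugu
miR-148b-3p: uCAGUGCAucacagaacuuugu
miR-152-3p: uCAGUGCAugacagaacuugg
Of the 1738 mature arms in that table, these 3 were the only ones with the seed CAGUGCA. Counted from 1 at the 5′ end, miR-148a-3p and miR-148b-3p differed at 2 of 22 bases, C9U and U10C. From miR-148a-3p to miR-152-3p the changes were C9U, U10G and U20G over 21 compared bases, and from miR-148b-3p to miR-152-3p they were C10G and U20G. The differences therefore lay just behind the seed and near the 3′ end.

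The 5p arms did not share 1 seed among all members. With bases 2 to 8 in capitals they read:
miR-148a-5p: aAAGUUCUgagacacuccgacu
miR-148b-5p: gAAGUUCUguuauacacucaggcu
miR-152-5p: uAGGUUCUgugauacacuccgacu
The seed AAGUUCU was held by miR-148a-5p and miR-148b-5p and by no other listed arm, and AGGUUCU by miR-152-5p alone. A deposited row counts the whole hairpin gene, so reads of the 5p and 3p arms could not be separated, and the values below are per gene.

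Each mature arm came from 1 listed locus. The longest run that any of the 6 arms shared with another of the 1005 listed hairpins was 12 bases, between miR-148a-3p and the hairpin of Mir148b. For the whole hairpins it was 15 bases, between Mir148a and Mir148b. Among the GENCODE M21 transcripts, each arm matched exactly in its own gene and in no other. The tables list multi-mapping reads apart from the genes, and none of these arms is a copy of another listed locus.

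Mir148a (ENSMUSG00000065505.1) lies on the minus strand at chr6:51269812-51269910 (mm10), and no annotated transcript overlaps it. The nearest annotated gene is the lincRNA Gm32479, 13622 bases away. Mir148b (ENSMUSG00000065560.1, chr15:103285125-103285221, plus strand) lies in intron 1 of Copz1, which is 16159 bases long. The hairpin starts 12183 bases behind the upstream exon. Mir152 (ENSMUSG00000065515.1, chr11:96850393-96850465, plus strand) lies in intron 1 of Copz2, which is 676 bases long, and starts 396 bases behind the upstream exon. Both host genes run on the strand of the miRNA. The nearest other annotated miRNA gene was 351722 bases from Mir148a, 65234 from Mir148b and 213303 from Mir152, so none of the 3 belongs to a cluster.

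Mir148a held 4368 sense counts in replicate 1 and 4163 in replicate 2. Per 1000000 sense counts of all gene rows (CPM) this was 784 (exact 95% Poisson interval 761 to 808) in replicate 1 and 689 (669 to 711) in replicate 2, a mean of 737 ± 67.1 CPM (SD, n = 2). It was the highest member in both libraries. The intervals here and below hold the counting error of reads alone. PCR copies of a molecule are counted as separate reads, so these intervals may be too narrow for molecules.

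Mir148b held 659 and 715 counts, which was 118 CPM in both libraries (109 to 128 in replicate 1 and 110 to 127 in replicate 2) and a mean of 118 ± 0.0592 CPM. So small an SD between 2 libraries lies far inside the counting error of each. Mir152 held 626 and 640 counts. This was 112 CPM (104 to 122) in replicate 1, 106 CPM (97.9 to 115) in replicate 2, and 109 ± 4.53 CPM on average. The counting intervals of Mir148b and Mir152 overlapped in both libraries, while those of Mir148a lay far above them. In these bulk hearts, fewer cells with a miRNA and less miRNA per cell cannot be told apart.

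**Figure D1:**
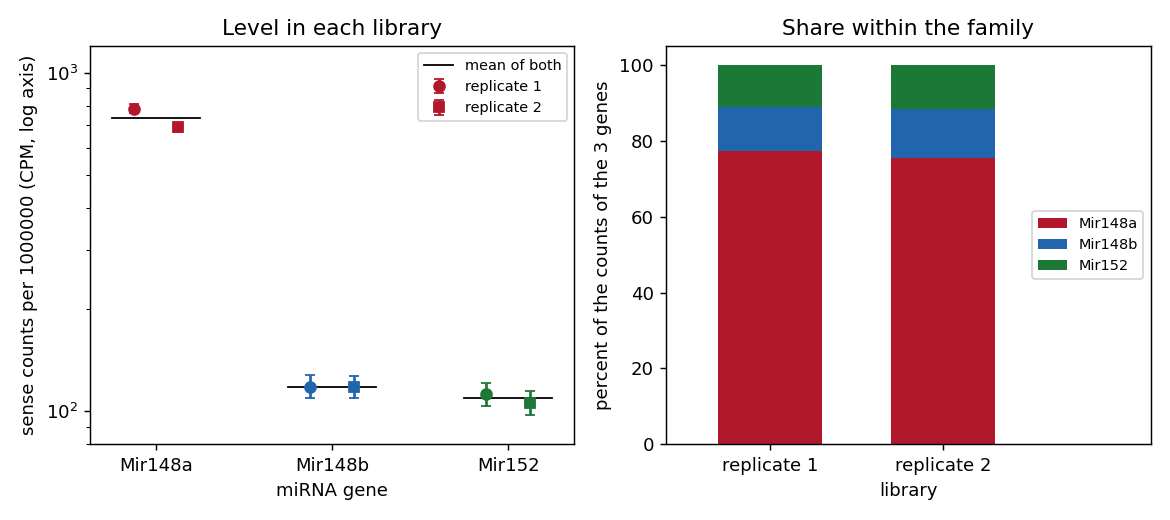
Left, CPM (log axis) of Mir148a, Mir148b and Mir152 in replicate 1 (circles) and replicate 2 (squares) with exact 95% Poisson intervals and the mean of both as a line; right, the percent of the counts of the 3 genes that each took in each library. Mir148a lies near 737 CPM, Mir148b and Mir152 lie near 118 and 109 CPM, and Mir148a takes over 75% of the counts in both libraries.

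Mir148a exceeded Mir148b by 6.63-fold in replicate 1 (exact 95% binomial interval of the ratio 6.11 to 7.20) and 5.82-fold in replicate 2 (5.38 to 6.31). The mean log2 ratio was 2.64 ± 0.13 (SD, n = 2), or 6.21-fold. Mir148a exceeded Mir152 by 6.98-fold (6.42 to 7.60) in replicate 1 and 6.50-fold (5.98 to 7.08) in replicate 2, a log2 ratio of 2.75 ± 0.0716, or 6.74-fold. Both differences were many times the spread between the libraries. No p is given for them, because the smallest value that exact sign flips over 2 libraries allow is 0.5. They are ratios of read counts. If some sequences are read more readily than others in both libraries alike, the spread would not show it, and this was not tested.

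Mir148b and Mir152 could not be ordered in the same way. Mir148b over Mir152 was 1.05-fold (0.942 to 1.18) in replicate 1 and 1.12-fold (1.003 to 1.24) in replicate 2. The log2 ratio of 0.12 ± 0.0606 was above 0 in both libraries, but the counting interval of replicate 1 included a ratio of 1, which that of replicate 2 did not. The rows of Mir148a, Mir148b and Mir152 span 99, 97 and 73 bases and their 3p arms 22, 22 and 21 bases. Divided by row length, which was added once the values were known, the order of Mir148b and Mir152 turned, with a log2 ratio of -0.29. Divided by the length of the 3p arm it was 0.050, smaller than its SD.

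Within the family, Mir148a took 77.3% of the counts in replicate 1 (exact Clopper-Pearson 95% interval 76.2 to 78.4) and 75.4% in replicate 2 (74.3 to 76.6), a mean of 76.4% ± 1.29. Mir148b took 11.7% and 13.0%, or 12.3% ± 0.919, and Mir152 took 11.1% and 11.6%, or 11.3% ± 0.371. The gene outside any annotated transcript thus held over 3 in every 4 family counts, and the 2 genes inside Copz1 and Copz2 held the rest in nearly even parts.

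By mean level, Mir148a ranked 90, Mir148b 168 and Mir152 174 among the 1973 rows. The ranks were 90, 170 and 174 in replicate 1 and 93, 168 and 176 in replicate 2. An average of at least 10 CPM was reached by 288 rows, all 3 members among them, and no count fell on 1281 rows. The genes most like each member were those with the smallest Euclidean distance in log2(CPM + 1) over the 2 libraries. For Mir148a they were Mir134 (784 and 686 CPM), Mir674 (755 and 717 CPM) and Mir1193 (801 and 651 CPM), and Mir134 came within a distance of 0.0063. For Mir148b they were Mir190a (112 and 118 CPM), Mir1981 (125 and 119 CPM) and Mirlet7a-2 (116 and 110 CPM). For Mir152 they were Mirlet7a-2, whose mature arm also comes from another locus, Mir376c (106 and 105 CPM) and Mir669c (103 and 111 CPM). Over 2 libraries this likeness is one of level only.

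**Figure D2:**
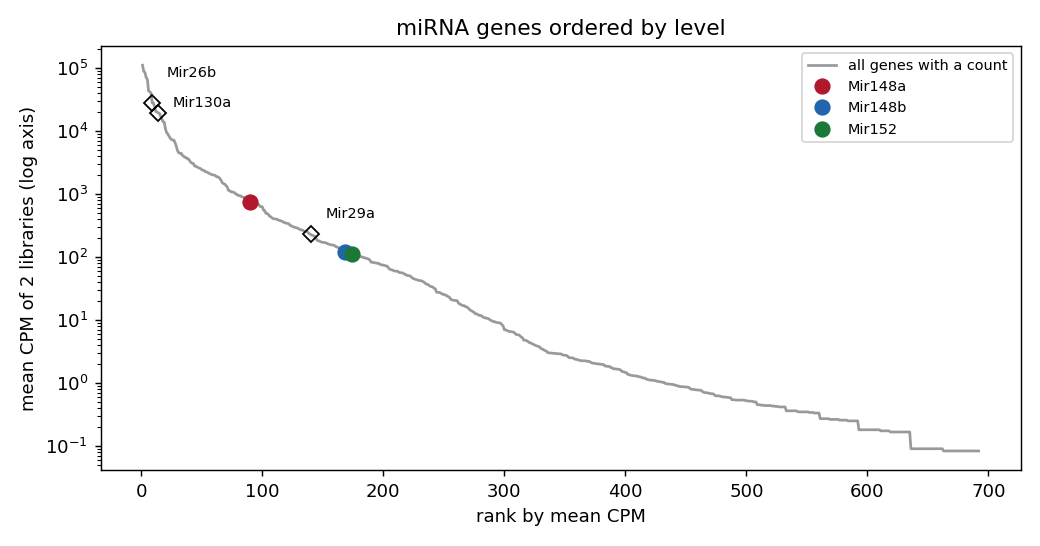
Mean CPM of 2 libraries (log axis) against rank for every miRNA gene with a count (grey line), with Mir148a, Mir148b and Mir152 as filled circles and the leading genes of 3 other families as open diamonds. Mir148a sits at rank 90 and Mir148b and Mir152 sit side by side at ranks 168 and 174, below Mir26b, Mir130a and, for the lower pair, Mir29a.

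Between the libraries, Mir148a was higher in replicate 1, with a log2 ratio of replicate 1 over replicate 2 of 0.19. Mir148b had a ratio of -0.0010 and Mir152 of 0.08. In a two-sided exact conditional binomial test over all 288 genes averaging at least 10 CPM, with Benjamini-Hochberg adjustment, Mir148a had an adjusted p of 8.36e-09, Mir148b of 1 and Mir152 of 0.380. It sets 1 library against the other and says nothing of a condition. An adjusted p under 0.05 was reached by 1 of the 3 members, against 61.5% of all genes tested, so the p of Mir148a does not set it apart. No member also reached a ratio of 1.5, which 5.90% of all genes tested did. Of the 288 genes, 161 (55.9%) had a smaller absolute ratio than Mir148a and 73 (25.3%) a smaller one than Mir152. The median ratio of all 288 genes was 0.10, and under TMM scaling, which brings it to -0.0031, Mir148a had a ratio of 0.08 (adjusted p = 0.0163), Mir148b of -0.10 (0.258) and Mir152 of -0.019 (0.880).

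**Figure D3:**
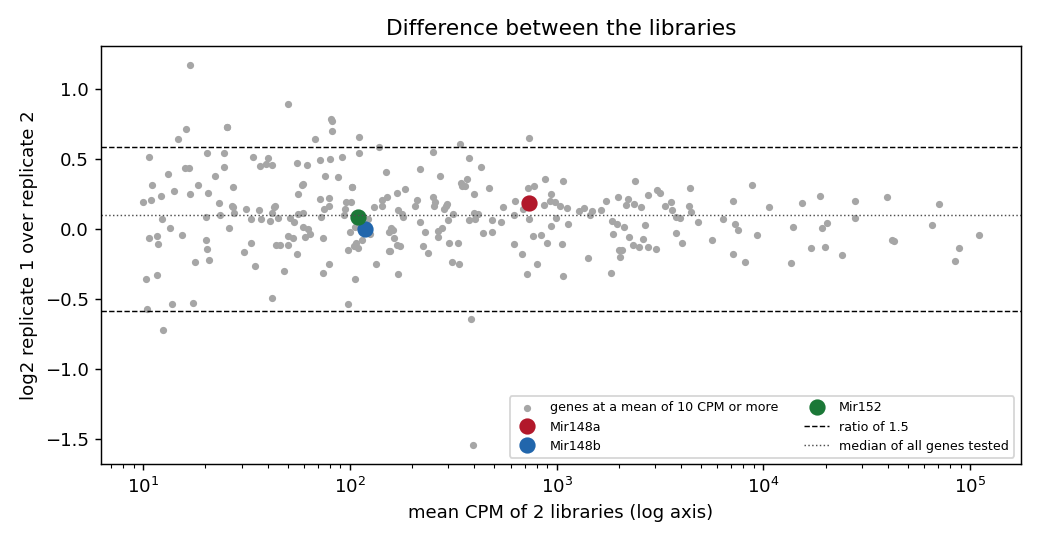
Log2 ratio of replicate 1 over replicate 2 against mean CPM (log axis) for the 288 genes tested (grey), with Mir148a, Mir148b and Mir152 as large circles, a ratio of 1.5 in either direction as dashed lines and the median of all genes at 0.10 as a dotted line. All 3 members lie between the dashed lines, at 0.19, -0.0010 and 0.08.

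The libraries held 5569959 (replicate 1) and 6039005 (replicate 2) sense counts, and the floor for a row with no count, set at 3 counts per library, was 0.539 and 0.497 CPM. Opposite-strand counts at the 3 members were 0 in both libraries. The heart label was matched by 3 of 6 listed cardiomyocyte miRNAs at 10 CPM or more, led by Mir208b at a mean of 42964 CPM. The rows of the others were low, with Mir1a-1 at a mean of 4.07 CPM, Mir133a-1 at 2.89 CPM and Mir133a-2 at 0. The number that ends these symbols marks 1 of several gene copies. If reads of several loci are in no gene row, these values are lower bounds and do not show that the mature miRNAs were scarce. The list summed to 50724 and 53395 CPM, with 2 of 6 higher in replicate 1. The miRNAs of liver and endoderm, listed because miR-148a is known to be abundant in liver, summed to 812 and 1340 CPM, with 2 of 6 higher in replicate 1 and none at 0. Of these, Mir122 was the highest of the list on average but not in replicate 1. It was lower in replicate 1 (201 CPM) than in replicate 2 (591 CPM), unlike Mir148a. Mir375, Mir194-1 and Mir194-2 were also lower in replicate 1. Mir215 (204 and 167 CPM) and Mir192 (58.2 and 53.8 CPM) were higher there, as Mir148a was. Smooth muscle miRNAs summed to 85136 and 93532 CPM, with 0 of 2 higher in replicate 1. Endothelial miRNAs (74954 and 66080 CPM, 3 of 3 higher in replicate 1), led by Mir126a with a log2 ratio of 0.18, had the direction of Mir148a. Erythroid miRNAs (1261 and 959 CPM, 3 of 3 higher in replicate 1) and leukocyte miRNAs (662 and 516 CPM, 3 of 4) had it too. No measured member of these 3 lists was at 0. The median log2 ratio of all 288 genes tested was 0.10 on total counts, so the middle of all genes had this direction too. The part of these lists in the Mir148a ratio was not tested.

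The family as a whole held 5653 counts in replicate 1 and 5518 in replicate 2. This was 0.101% of all sense counts (exact Clopper-Pearson 95% interval 0.0989 to 0.104) and 0.0914% (0.0890 to 0.0938), or a mean of 0.0964% ± 0.00715 (SD, n = 2). It was set against 3 like families, chosen for a seed shifted by 1 base, for known targeting of other DNA methyltransferases, and for introns of paralogous hosts.

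The first was the miR-130 family, whose member miR-130a is known from endothelium. Its 3p arms begin with the same 7 letters, 1 base earlier, as the run in capitals shows:
miR-148a-3p: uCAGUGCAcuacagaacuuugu
miR-130a-3p: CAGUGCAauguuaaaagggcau
miR-130b-3p: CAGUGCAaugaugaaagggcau
miR-301a-3p: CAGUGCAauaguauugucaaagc
Their bases 2 to 8 are AGUGCAA, so the families share 6 of 7 seed letters in a shifted frame. The miR-148 family held 964 ± 71.5 CPM, against 24081 ± 38.5 CPM in the miR-130 family, a log2 ratio of -4.64 ± 0.10. The miR-130 family was thus 25.01-fold higher. Its 5 measured rows were led by Mir130a at 19260 ± 53.2 CPM, followed by Mir130b at 3769 ± 55.6 CPM, Mir301 at 992 ± 37.4 CPM and Mir301b at 59.2 ± 3.38 CPM, and Mir130c held no count. Mir148a (784 and 689 CPM) was lower than Mir301 alone (1019 and 966 CPM) in both libraries.

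The miR-29 family, known for targeting the de novo methyltransferases Dnmt3a and Dnmt3b and collagens, was lower. The miR-148 family exceeded it by a log2 ratio of 1.73 ± 0.17, at 964 CPM against 290 ± 13.1 CPM. Mir29a held 226 ± 13.7 CPM, Mir29c 59.5 ± 0.356 CPM, Mir29b-1 3.44 ± 0.0468 CPM and Mir29b-2 0.870 ± 0.293 CPM. Mature miR-29b comes from 2 loci with the same 23 bases, and if reads of several loci are in no gene row the miR-29 sum is a lower bound. On rows without such copies the log2 ratio was 1.75.

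The miR-26 family lies in introns of the Ctdsp phosphatase genes. It was 28.8-fold higher, at 27814 ± 2721 CPM (log2 ratio of the miR-148 family over it -4.85 ± 0.0343), with 99.9% of its counts from Mir26b. Mir26a-1 and Mir26a-2 share all 22 bases of their 5p arm and held 5.80 ± 2.11 and 26.1 ± 0.152 CPM, which are lower bounds in the same sense. The leading gene took 76.4% of the miR-148 counts, 79.98% ± 0.0932 of the miR-130 counts (Mir130a) and 78.0% ± 1.205 of the miR-29 counts (Mir29a). The log2 ratios between families were larger than their SD between the libraries. No p is given for them, since exact sign flips over 2 libraries allow none below 0.5. These too are ratios of read counts, and the SD would not show a reading bias repeated in both libraries.

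**Figure D4:**
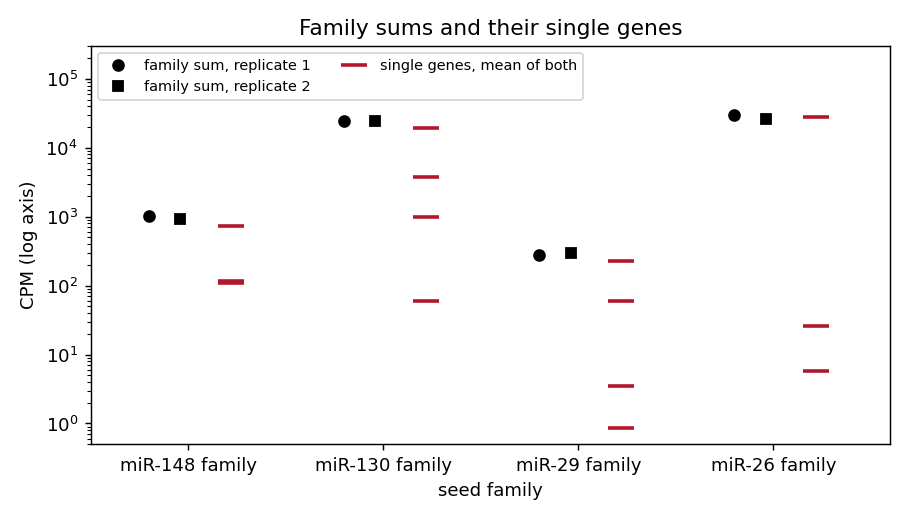
CPM (log axis) of the miR-148, miR-130, miR-29 and miR-26 families, as the family sum in replicate 1 (circles) and replicate 2 (squares) and as red bars for the mean of each gene with a count. The miR-148 sum lies near 964 CPM, above the miR-29 sum near 290 CPM and below the miR-130 sum near 24081 CPM and the miR-26 sum near 27814 CPM.

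The mRNA was not measured here, so the known targets can be described by sequence only. A 7-base match to the shared seed reads TGCACTG on the transcript strand, which was the strand searched, and an 8-base match, with A opposite base 1 of the miRNA, reads TGCACTGA. Of 21037 protein-coding genes, taken with their longest 3′ UTR in GENCODE M21, 12.7% held TGCACTG and 3.59% held TGCACTGA. Among 8 genes of DNA methylation, Dnmt1 and Uhrf1 held 1 match each, both of 8 bases. Uhrf1 is the protein that brings Dnmt1 to newly copied DNA. Dnmt3a, Dnmt3b, Dnmt3l, Tet1, Tet2 and Tet3 held no such letters in this window. The 3′ UTR of Dnmt1 is 312 bases long with the match at base 23, and 3.12% of 1699 UTRs of 0.8 to 1.2 times its length held TGCACTG. That of Uhrf1 is 984 bases long with the match at base 613, and 9.91% of 2663 UTRs of like length held the letters.

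The matches (capitals) with the bases around them, read on the transcript strand from GENCODE M21 transcripts (GRCm38), are shown as the letters to which all 3 members' 3p seeds are complementary:
Dnmt1, chr9:20907481-20907510, minus strand: cagagccccacgTGCACTGAtgtttttaac
Uhrf1, chr17:56323103-56323132, plus strand: gttttcagagagTGCACTGActgggtgtca
Abca1 held 2 matches of 7 bases, and both were preceded by T, so that they overlap TTGCACT, the 7-base match of the miR-130 seed. Its 3′ UTR is 3156 bases long, and 24.9% of 2185 UTRs of like length held TGCACTG. The joined letters TTGCACTG stood in 3.55% of all 3′ UTRs, and TTGCACT in 9.98%. In Dnmt1 and Uhrf1 the base before the match was not T. A match is a description of letters, and these data hold no measurement of binding or repression.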

How the data were processed

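In the deposited tables each miRNA gene has raw read counts for its own strand (sense), for the other strand and for their sum. Per the notes deposited with them, the authors counted reads on mm10 with GENCODE annotation M4. Aligner, counter and trimming: not given in the sources used here. Sense counts were used, and 4 rows of read classes stayed out of totals and tests. They held 26.9% and 28.0% multi-mapping reads, 21.2% and 17.2% unmapped reads, and 3.60% and 2.92% reads outside any miRNA gene. Symbols and positions were looked up in GENCODE M21, also on mm10, where 1894 of 1973 identifiers matched, and sequences from RefSeq (GRCm38.p6).

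The members and lists were chosen with earlier results of these data known. Genes named were the 3 members, the 3 nearest to each in level, the rows of 3 like families and fixed marker lists. Mir721 and Mir142 had no row under these symbols. A listed target gene is not reported here. Labels do not say whether the biosamples came from separate litters, so the SD between the libraries may be technical spread alone. The p-values of the binomial test hold counting error only and measure neither technical nor biological spread.

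Genes averaging at least 10 CPM were compared between the libraries with an exact conditional binomial test in scipy 1.17.1, a pseudocount of 1 CPM for ratios and Benjamini-Hochberg adjustment. The step was tested on data simulated with counting error alone, so any wider spread between libraries was not part of that test. edgeR's quasi-likelihood test has no residual degrees of freedom with 1 library on each side. edgeR 4.0.16 (TMM) and DESeq2 1.42.0 in R 4.3.3 gave alternative scalings. The DESeq2 size factor was 1 in both libraries. Ratios between the libraries under that setting are therefore those of raw counts, with both depths treated as equal.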

Additional observations from a re-analysis of the deposited data

How the results depend on the processing

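Of 84 values recomputed under other settings, 67 were held to be the same, 13 moved further and 4 turned direction. Levels, shares and their ratios were held the same within 1 SD. Replicate ratios were held the same if they kept their direction and their side of the threshold. Numbers of genes called were held the same within a factor of 1.5. Some of the 67 could not have moved, so the tally is no measure of robustness. With 2 libraries, leaving 1 out shifts a mean by less than 1 SD. Ratios between members were fixed with both strands counted, since opposite-strand counts of the members were 0. Per 1000000 reads of all rows, Mir148a held 349 CPM, Mir148b 56.3 CPM and Mir152 51.8 CPM, because the denominator also counts the read classes. With both strands counted, Mir148b held 112 CPM and Mir152 104 CPM. The level of Mir148b was 118.4 CPM under TMM scaling and 118.5 CPM under DESeq2 size factors, a shift larger only than its SD of 0.0592. The log2 ratio of replicate 1 over replicate 2 at Mir152 turned to -0.019 under TMM and to -0.032 under DESeq2 size factors, and that at Mir148b to 0.0024 with both strands. None of these ratios passed the test. At Mir148a the adjusted p of the exact binomial test ran from 4.17e-09 (both strands) to 0.0478 (DESeq2 size factors).

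Per base of the annotated row, added after the data were seen, the log2 ratio of Mir148a over Mir152 was 2.31 and that of Mir148b over Mir152 turned to -0.29. Per base of the 3p arm Mir148b over Mir152 was 0.050. Genes called between the libraries numbered 17, and 39 at a mean of 1 CPM, 45 with no filter beyond 1 count, 6 at 100 CPM and 2 at a ratio of 2. TMM called 16, 8 higher in each library, against 14 and 3 on total counts.

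Without replicate 1 or 2 the levels ran from 689 to 784 CPM for Mir148a, 118.3 to 118.4 CPM for Mir148b and 106 to 112 CPM for Mir152. The replicate ratio needs both libraries. No paired analysis was possible because the design has 1 group. At these depths the counting interval of the ratio of Mir148b over Mir152 included 1 in replicate 1 and not in replicate 2. Whether depth limits their order was not tested.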

Other observations

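The 7 letters of the family's seed are not limited to it. CAGUGCA stood in 17 of the 1738 listed mature arms. It was at bases 2 to 8 in 3 arms, those of the family, and at bases 1 to 7 in 7 arms. In miR-17-5p, miR-106a-5p, miR-106b-5p and miR-33-3p it lay at bases 12 to 18, behind the seed.

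All 3 members are solitary genes, with no other annotated miRNA gene starting within 10000 bases. Of 288 miRNA rows at a mean of 10 CPM or more, 126 (43.8%) were solitary in this sense. Their median level was 133 CPM, against 276 CPM for rows with a neighbour. Mir148a lay above both medians, and Mir148b and Mir152 below both. This comparison was chosen after earlier results of these data were known, and neighbours in a cluster share a transcript, so no test is given.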
